A study of Homo sapiens with 6 samples.

Results

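The PPM1 genes encode serine/threonine phosphatases of the PP2C type. Unlike the larger PPP family, whose catalytic subunits work with regulatory subunits, they act mostly as single chains and need manganese or magnesium ions in the active site. They remove phosphate from stress kinases, cell cycle kinases, SMAD proteins and metabolic enzymes, and so set how long a kinase signal lasts. PRL-3, by contrast, is a protein tyrosine phosphatase, encoded by PTP4A3.

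The 10 genes described here are PPM1A, PPM1B, PPM1D, PPM1E, PPM1F, PPM1G, PPM1H, PPM1K, PPM1L and PPM1M, out of 18377 genes measured. They were named by family. For each gene 1 probe set was chosen by its mean log2 intensity over all 6 arrays, the brightest standing for the gene, so that mean level is a description only. The family held 11 probe sets, all annotated to a single gene, and only PPM1K had more than 1. The same family name also covers PPM1J and PPM1N, which the 10 do not include and which are given separately.

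The cells were TF-1, a human erythroleukaemia line that grows only with a cytokine. The PRL-3 group (3 arrays, numbered 4 to 6) had been transfected with human PRL-3 and the control group (3 arrays, numbered 1 to 3) with a control vector labelled pEGFP. The medium of both groups was RPMI containing 10% serum (FBS) and human interleukin-3 at 5 ng/ml. The labels do not give the promoter of either construct or say whether the cells were a pool or a clone. Nor do they say whether each array had its own culture, so every p-value rests on array-to-array spread that could be technical.

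PTP4A3 itself read 10.81, 10.93 and 10.79 in PRL-3 arrays, against 7.92, 8.03 and 7.97 in control arrays (log2 intensity), in the direction of the labels. Median intensity per array lay between 89.8 and 92.9. Of 12 measured erythroid and progenitor markers, 9 lay above the 75th percentile of all genes (GATA1, KLF1 and CD34 among them). All 8 measured lymphocyte markers lay below the 50th percentile, and so did 8 of 10 epithelial, fibroblast and endothelial markers, with KRT18 and COL1A1 above it. Of the erythroid and progenitor markers, KIT (1.02) and CSF2RA (0.27) were higher and HBB (-2.15) was lower in PRL-3 arrays (log2 difference), and the list's summed intensity was 3909 to 4915 in PRL-3 arrays and 4699 to 5974 in control arrays; the part of these shifts in the differences of the PPM1 genes was not tested. The summed intensity of the lymphocyte markers was 477 to 501 in PRL-3 arrays and 463 to 495 in control arrays, and 0 of these 8 markers passed the test (limma; the lowest adjusted p was 0.251, for CD3D). Apart from the groups, PRL-3 5 and control 1 lay to one side and control 3 to the other along the second principal component, which held 31.4% of the variance.

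Of the 10 genes, PPM1E and PPM1L were higher in PRL-3 cells, by 1.38-fold and 1.33-fold, and 0 were lower (limma). The same 2 of 10 had an unadjusted p under 0.05, beside 3704 of all 18377 genes, which is nearly the same share. The unequal-variance test, which does not share the spread between genes, called 0 of the 10 (adjusted p = 0.138 for PPM1E and 0.296 for PPM1L) and 11 of all genes. In bulk RNA, more cells expressing a gene and more RNA per cell cannot be told apart. The other 8 did not pass the test, with differences between -0.09 and 0.13 on the log2 scale. The 2 that passed make up 20% of the family, against 7.69% of all genes that passed at an adjusted p of 0.05 (limma, Benjamini-Hochberg over 18377 genes). In the upward direction alone the share was 4.58% of all genes, and 3.11% went down. With 10 genes, that gap is a matter of 1 or 2 calls. The groups did not overlap in the same 2 genes, a share of 20%, while 24.3% of all genes had groups that did not overlap. The median difference over the family was 0.09, beside -0.02 over all genes, and its median size without sign was 0.09, the same as for all genes.

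**Figure D1:**
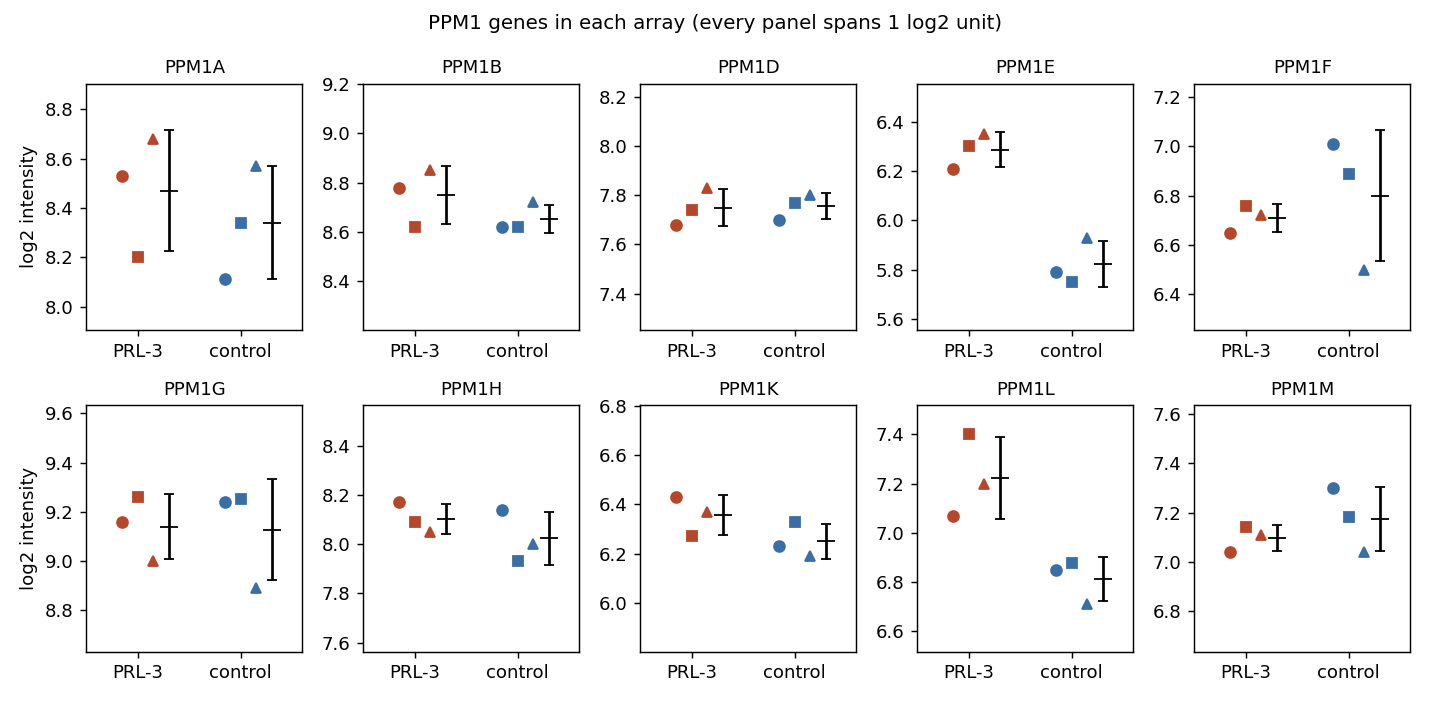
Log2 intensity of each PPM1 gene in the 3 PRL-3 arrays (red) and the 3 control arrays (blue); circles, squares and triangles are the arrays of a group in order of their number, and black bars are mean ± SD (n = 3 each). The groups stand apart in PPM1E and PPM1L and overlap in the other 8 genes.

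PPM1E, also called POPX1 or CaMKP-N, is known mainly from brain, where it removes phosphate from calcium/calmodulin-dependent kinases and from p21-activated kinases (PAK). Its probe set (8008768) read 74.1, 78.8 and 81.5 in PRL-3 arrays, against 55.4, 53.9 and 60.9 in control arrays (intensity). The lowest PRL-3 array was above the highest control array. On the log2 scale it averaged 6.29 ± 0.069 in PRL-3 and 5.82 ± 0.092 in control arrays (SD, n = 3 each), a difference of 0.46 ± 0.077 (SE; 95% interval 0.29 to 0.64; adjusted p = 0.0098, limma). With 3 arrays a group, the exact permutation test (two-sided) cannot go below p = 0.1, and that is what PPM1E gave. The call was lost without control 2 (adjusted p = 0.0603) or without PRL-3 6 (adjusted p = 0.0518, limma), with differences of 0.43 in both fits.

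These PPM1E values were dim. The table has no detection call, and all 6 lay below the array medians. The 8 lymphocyte markers, which TF-1 should lack, read 4.88 to 6.48 in single PRL-3 arrays and 4.95 to 6.49 in single control arrays (log2), a range that holds every PPM1E value. Probe sets differ in brightness, so this sets no level for PPM1E, and whether its signal stood above background was not tested.

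PPM1L is a PP2C enzyme anchored in the membrane of the endoplasmic reticulum. It has been linked to the ceramide transfer protein CERT1, to the stress kinases MAP3K7 (TAK1) and MAP3K5 (ASK1) and to the unfolded protein response. Its intensity was 134, 169 and 147 in PRL-3 arrays, against 115, 118 and 104 in control arrays (probe set 8083749). All PRL-3 arrays were above all control arrays, and PRL-3 5 was the highest. The log2 means were 7.22 ± 0.17 in PRL-3 and 6.81 ± 0.094 in control arrays (SD, n = 3 each), and the difference was 0.41 ± 0.099 (SE; 95% interval 0.18 to 0.64; adjusted p = 0.044, limma). The exact permutation p was 0.1. The call lay close to the threshold: it was lost whichever array was left out, with adjusted p of 0.0531 (without PRL-3 4) to 0.128 (without PRL-3 6) in limma. The difference was smallest without PRL-3 5, at 0.32, and largest without PRL-3 4, at 0.49.

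**Figure D2:**
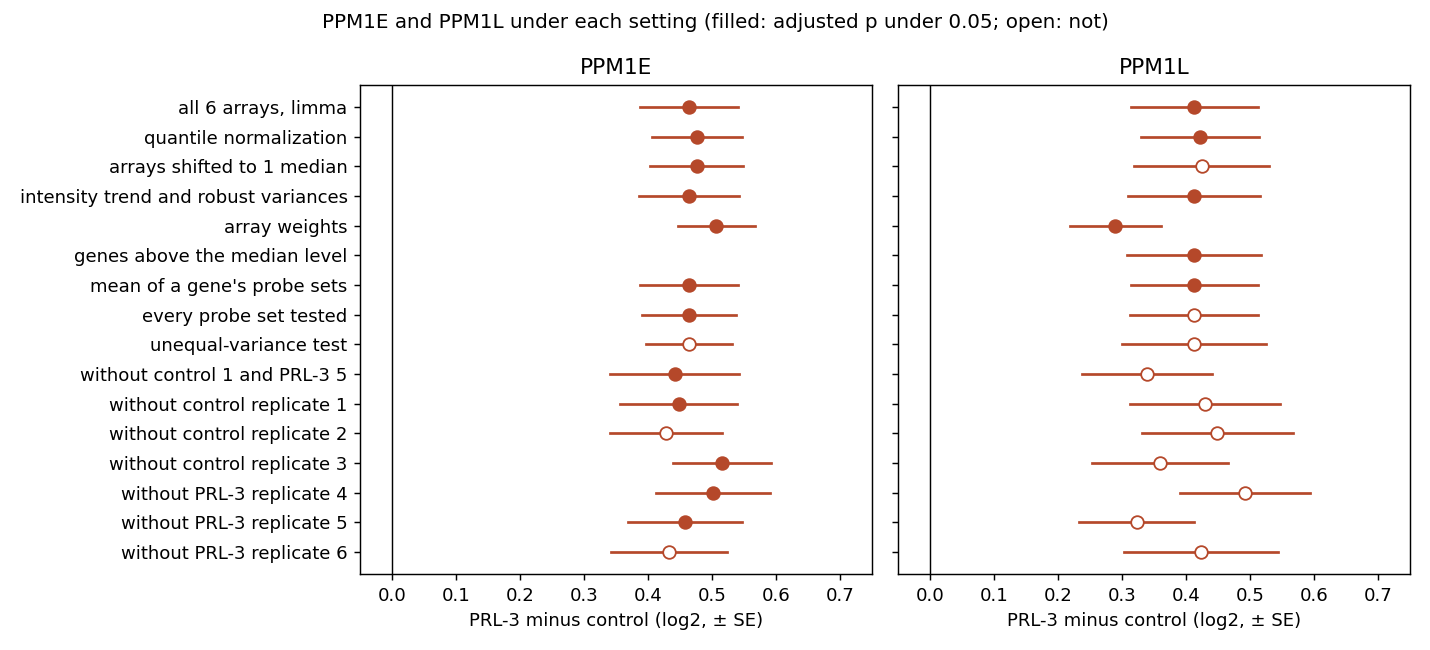
Difference between PRL-3 and control arrays (log2 intensity, bars ± SE) for PPM1E and PPM1L in the fit to all 6 arrays and under each other setting; filled points had an adjusted p under 0.05 and open points did not. All differences lie above 0, between 0.43 and 0.52 for PPM1E and between 0.29 and 0.49 for PPM1L, and more of the PPM1L points are open; PPM1E has no point among genes above the median level because it lies below it.

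The sequences just upstream of these 2 genes are shown because PPM1E and PPM1L were the members that passed the test. Each is the 250 bases before the RefSeq gene start (GRCh38.p14), 5′ to 3′ on the plus strand, with capitals marking the GC box letters GGGCGG or the reverse complement CCGCCC. The PPM1E stretch is chr17:58755604-58755853 and the PPM1L stretch chr3:160755981-160756230.
PPM1E: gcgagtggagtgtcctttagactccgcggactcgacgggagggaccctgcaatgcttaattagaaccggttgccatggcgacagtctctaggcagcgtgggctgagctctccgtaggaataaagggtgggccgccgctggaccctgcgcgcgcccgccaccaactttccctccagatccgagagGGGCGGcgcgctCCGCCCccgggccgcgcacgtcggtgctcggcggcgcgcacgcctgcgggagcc
PPM1L: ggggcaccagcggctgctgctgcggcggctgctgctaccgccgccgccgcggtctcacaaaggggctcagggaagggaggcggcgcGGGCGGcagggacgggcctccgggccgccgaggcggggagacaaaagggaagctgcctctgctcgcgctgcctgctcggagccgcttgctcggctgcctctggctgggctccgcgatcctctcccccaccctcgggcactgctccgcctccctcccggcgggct

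PPM1E had 2 GC box matches, starting at -66 and -54 from the gene start, and PPM1L had 1, at -164. Windows of 300 bases (250 before and 50 from the start) were searched on both strands in all 10 genes for the GC box, the cAMP response element TGACGTCA, the E-box CACGTG, the CCAAT box (CCAAT) and the TATA box (TATAAA), a choice made after the values had been seen. The GC box stood in 8 of the 10 windows, PPM1A and PPM1H being without it, and in 45% of all 35116 RefSeq windows of that length. The 10 windows are at gene starts only, whereas all windows, here and below, include further starts as well, so the shares are not of like sets. The cAMP response element stood in the window of PPM1D, at -61, and in 1.85% of all windows. PPM1H held the E-box (7.26% of all windows), PPM1B and PPM1D held CCAAT (34.6%), and TATAAA was in 0 of the 10 (11.5%). The gene-start windows of PPM1E and PPM1L held no match of any motif other than the GC box. G and C made up 52.3% of the window of PPM1A and 65.3% to 76.7% in the other 9, with a median of 58.7% over all windows. The 2 genes that passed and the 8 that did not thus both include GC-rich windows with GC boxes. RefSeq lists further starts for some members: another PPM1A window had 76.3% G and C and held 2 GC boxes and the cAMP response element. The other PPM1L windows had 39.3% and 37% with no GC box, both held TATAAA, and the second of them also held CCAAT.

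Genes next to PPM1E and PPM1L did not pass the test. By RefSeq order, a comparison added after the values had been seen, 0 of the 3 nearest measured protein-coding genes on each side of PPM1E passed (limma; lowest adjusted p = 0.199, for SKA2), with differences of -0.15 to 0.45. SKA2, a spindle and kinetochore protein gene, read 8.98 in PRL-3 and 8.53 in control arrays and had the largest of these differences. That difference, 0.45 ± 0.18 (log2, SE), was close in size to that of PPM1E, 0.46 ± 0.077, with a wider error. Around PPM1L 0 of 6 passed (lowest adjusted p = 0.0941, for the importin gene KPNA4), with differences of -0.11 to 0.26. Over all genes 7.69% passed in limma, so 0 calls among so few neighbours says little.

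PPM1F, or POPX2, is the closest relative of PPM1E in function and acts on the same kinases. It read 100, 109 and 105 in PRL-3 arrays, against 129, 118 and 90.5 in control arrays (intensity). The PRL-3 values lay inside the control range. The difference was -0.09 ± 0.13 (log2, SE; adjusted p = 0.784, limma), and it turned to 0.02 without control 1 and was -0.24 without control 3. The difference between PPM1E and PPM1F was not tested.

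PPM1A and PPM1B are the ubiquitous members, which between them switch off SMAD2 and SMAD3, the IKK kinases and stress-activated kinases, though not each of them all of these. PPM1A had 369, 295 and 412 in PRL-3 arrays, against 276, 324 and 379 in control arrays (intensity). The groups overlapped, and the lowest array of each group was PRL-3 5 and control 1. Its difference of 0.13 ± 0.15 (log2, SE) had the widest error of the family (adjusted p = 0.716, limma). It was 0.27 without PRL-3 5 and 0.02 without control 1, and did not pass in either fit. PPM1B gave 438, 393 and 461 in PRL-3 arrays, against 395, 393 and 422 in control arrays. These groups overlapped as well, with PRL-3 5 again the lowest of its group, and the difference was 0.09 ± 0.081 (log2, SE; adjusted p = 0.622, limma). It was 0.04 without PRL-3 6 and 0.16 without PRL-3 5.

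PPM1D, also called WIP1, is switched on by p53 and ends the DNA damage response by acting on ATM, the checkpoint kinases and histone H2AX. Its intensities were 206, 213 and 227 in PRL-3 arrays, against 208, 219 and 222 in control arrays. The PRL-3 values lay around the control values. The difference was -0.01 ± 0.07 (log2, SE; 95% interval -0.17 to 0.15; adjusted p = 0.969, limma), and the interval leaves room for a change of at most 0.17 in either direction.

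PPM1G is a nuclear member tied to pre-mRNA splicing, histone exchange and the release of the elongation factor P-TEFb from the 7SK particle. It read 571, 612 and 512 in PRL-3 arrays, against 606, 607 and 475 in control arrays (intensity). The groups overlapped, and the lowest arrays were PRL-3 6 and control 3. The difference was 0.01 ± 0.11 (log2, SE; adjusted p = 0.976, limma), and it turned to -0.11 without control 3 and to -0.05 without PRL-3 5.

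PPM1H removes the phosphate that the kinase LRRK2 puts on RAB GTPases and also acts on the cell cycle inhibitor CDKN1B. Its values were 288, 273 and 265 in PRL-3 arrays, against 282, 243 and 256 in control arrays (intensity). They overlapped through control 1, the highest control array. The difference of 0.08 ± 0.079 (log2, SE) did not pass (adjusted p = 0.659, limma). It was 0.03 without control 2 and 0.14 without control 1.

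PPM1K works in the mitochondrial matrix, where it activates the branched-chain ketoacid dehydrogenase. Probe set 8101701 read 86, 77.3 and 82.6 in PRL-3 arrays, against 74.9, 80.3 and 73.1 in control arrays (intensity), and PRL-3 5 fell within the control range. The difference was 0.11 ± 0.074 (log2, SE; adjusted p = 0.508, limma), the lowest adjusted p among the 8 that did not pass, and it was 0.07 without PRL-3 4 and 0.15 without PRL-3 5. Every value of this probe set lay within the log2 range of the lymphocyte markers, and whether its signal stood above background was not tested. The dimmer PPM1K probe set (8101699) had 29.5, 34.4 and 28.5 in PRL-3 arrays, against 25.3, 34.9 and 33.1 in control arrays. Its difference was 0 to 2 decimals (-0.0045 ± 0.13, log2, SE; adjusted p = 0.991 in limma over all probe sets with 1 gene), so neither probe set of PPM1K passed.

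PPM1M, the remaining member, gave 131, 141 and 138 in PRL-3 arrays, against 158, 145 and 132 in control arrays (intensity). Here the control arrays spread more widely and enclosed all PRL-3 arrays but PRL-3 4, which lay just under control 3. The difference was -0.08 ± 0.082 (log2, SE; adjusted p = 0.685, limma), and it was -0.02 without control 1 and -0.15 without control 3. Over the 8 genes that did not pass, 95% intervals reached from -0.38 to 0.47, so changes of about the size seen for PPM1L lay within the interval for PPM1A but not within that for PPM1D.

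**Figure D3:**
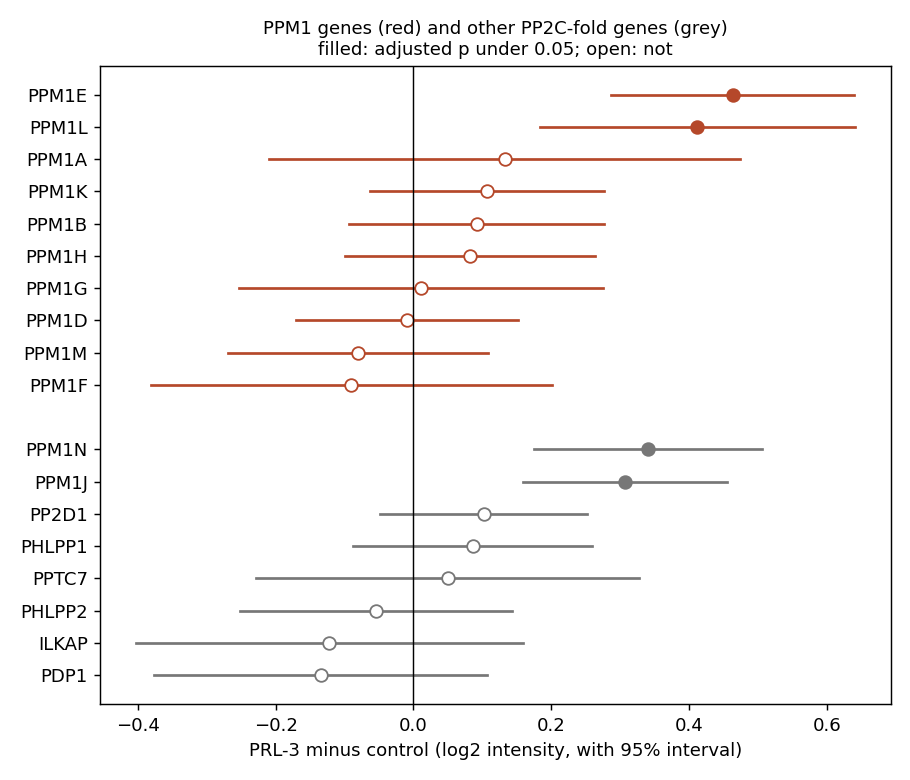
Difference between PRL-3 and control arrays (log2 intensity) with limma's 95% interval for the 10 PPM1 genes (red) and 8 other genes of the PP2C fold (grey); filled points had an adjusted p under 0.05. PPM1E and PPM1L, and below them PPM1N and PPM1J, are filled, and the intervals of all the others cross 0.

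Within a group the members did not move alike from array to array. PPM1A stood 0.27 under its group mean in PRL-3 5 and 0.23 under it in control 1, and 0.23 above it in control 3 (log2). PPM1F ran the other way in the control group, 0.21 above the mean in control 1 and 0.30 under it in control 3, as did PPM1G, 0.12 above and 0.235 under. PRL-3 5, control 1 and control 3 are the arrays at the ends of the second principal component. PPM1E varied less than these, by at most 0.10, and PPM1L by at most 0.18, in PRL-3 5. PPM1D and PPM1K, which did not pass, varied less than PPM1E, by at most 0.077 and 0.083. Without control 1 and PRL-3 5 together, PPM1E was 0.44 higher (adjusted p = 0.0447) and PPM1L 0.34 higher (adjusted p = 0.104, limma), which leaves 1 call in the family.

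**Figure D4:**
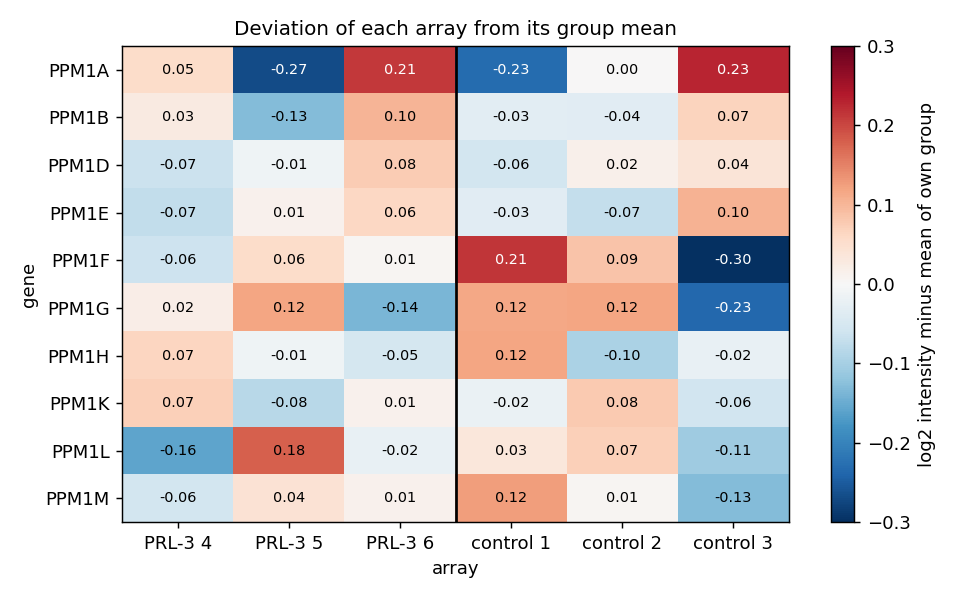
Log2 intensity of each PPM1 gene in each array minus the mean of the 3 arrays of its own group, from blue (under the mean) to red (above it), with the value in each cell. PPM1A, PPM1F and PPM1G hold the widest spread, with control 3 at 0.23, -0.30 and -0.235.

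By Euclidean distance of mean-centred log2 values over the 6 arrays, the 3 genes among 18367 others whose pattern lay nearest to PPM1E were GDE1, MME and IFT20, at 0.0997, 0.101 and 0.107. They differed by 0.48, 0.44 and 0.39 (log2), with adjusted p of 0.00871, 0.0184 and 0.0199 in limma. GDE1 is a phosphodiesterase of lipid metabolism, MME the membrane peptidase CD10, and IFT20 a transport protein of cilia and the Golgi. GDE1 lost its call without control 2, and MME and IFT20 lost theirs without control 1, control 2, PRL-3 4 or PRL-3 6. With 6 arrays in 2 groups, a short distance says little more than that a gene rose by about as much.

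Among the other PP2C-fold genes, PPM1N and PPM1J rose and 0 of 8 fell (limma; 2 of 8 at an unadjusted p under 0.05, and 0 by the unequal-variance test). Over all genes, 4.58% rose and 3.11% fell in limma, and 3704 of 18377 had an unadjusted p under 0.05. These shares also stand beside the counts of the lists that follow. PPM1N read 7.34, 7.41 and 7.37 in PRL-3 arrays, against 7.11, 7.04 and 6.93 in control arrays (log2), a difference of 0.34 ± 0.072 (SE; adjusted p = 0.0275, limma). PPM1J read 6.47, 6.55 and 6.53 in PRL-3 arrays, against 6.23, 6.22 and 6.17 in control arrays, a difference of 0.31 ± 0.064 (adjusted p = 0.0269, limma). In both genes the groups stood apart, as they did in 3 of these 8 genes in all and in 24.3% of all genes. The third of these did not pass. The control values of PPM1J and its value in PRL-3 4 lay within the range of the lymphocyte markers. Whether the PPM1J signal stood above background was not tested. Both calls were fragile: PPM1J lost it whichever array was left out (adjusted p up to 0.108) and PPM1N without control 2, PRL-3 4, PRL-3 5 or PRL-3 6 (up to 0.105, limma). The mitochondrial pyruvate dehydrogenase phosphatase PDP1 (-0.13) and the integrin-linked kinase-associated phosphatase ILKAP (-0.12) lay lowest and did not pass; these 2 were named after their values were seen. The median over the 8 was 0.07.

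Of 13 catalytic subunits of the PPP family 2 rose and 0 fell, with 2 at an unadjusted p under 0.05 in limma and 0 called by the unequal-variance test. PPP3CB, a catalytic subunit of the calcium-dependent phosphatase calcineurin, read 8.88, 8.84 and 8.85 in PRL-3 arrays, against 8.43, 8.52 and 8.47 in control arrays (log2), a difference of 0.38 ± 0.064 (adjusted p = 0.0105, limma). It lost the call without PRL-3 4 or PRL-3 6 (adjusted p up to 0.0588). PPP1CC, the gamma form of protein phosphatase 1, differed by 0.27 ± 0.066 (adjusted p = 0.0431, limma) and lost the call whichever array was left out. The median over the 13 was -0.0019.

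Genes of the proteins that the members act on were counted by enzyme. The counts below stand beside 7.69% of all genes that passed in limma, 4.58% up and 3.11% down. At an unadjusted p under 0.05 there were 3704 of 18377 genes. No list was tested as a set. In the DNA damage circuit of PPM1D, 0 of 11 measured genes rose and 0 fell (limma; 4 had an unadjusted p under 0.05, and 0 passed the unequal-variance test). The largest difference was that of UNG, a DNA glycosylase, at -0.30 (adjusted p = 0.068), and the median was -0.07. Among 19 targets named for PPM1A and PPM1B, 3 rose and 1 fell. CDK6, a kinase of early cell cycle entry, read 8.69, 8.77 and 8.80 in PRL-3 arrays, against 9.49, 9.38 and 9.25 in control arrays (log2), and fell by 0.62 on the log2 scale (adjusted p = 0.00366, limma). CHUK, the gene of IKK alpha, rose by 0.50 (adjusted p = 0.00843, limma). Both kept their calls in limma whichever array was left out, but the unequal-variance test called 0 of the 19. MAPK9, the stress kinase JNK2, rose by 0.31 (adjusted p = 0.0392) and MAP3K7, also a target of PPM1L and named here after its value was seen, by 0.29 (adjusted p = 0.0292, limma), and both lost their calls in all 6 such fits. The median over the 19 was 0.02.

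For the kinases and partners of PPM1E and PPM1F, 0 of 13 rose and 0 fell (limma; 2 at an unadjusted p under 0.05, 0 by the unequal-variance test), with a median of -0.02. ARHGEF7, the beta-PIX protein that joins PAK to these phosphatases, had the largest difference, -0.34 (adjusted p = 0.128). In branched-chain amino acid breakdown, where PPM1K acts, 1 of 14 fell and 0 rose (limma; 2 at an unadjusted p under 0.05, 0 by the unequal-variance test). It was MCCC2, a subunit of methylcrotonyl-CoA carboxylase in the leucine pathway, at -0.52 (adjusted p = 0.00929, limma), which lost the call without control 2 (adjusted p = 0.05002). The ketoacid dehydrogenase subunit genes BCKDHA (-0.23) and BCKDHB (-0.09) and the kinase gene BCKDK (-0.02), named here as the complex PPM1K acts on and outside the rule for named genes, did not pass, and the median over the 14 was -0.04.

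Of 14 genes linked to PPM1H and PPM1L, 1 rose and 1 fell. RAB8B, a RAB GTPase of vesicle traffic, read 9.45, 9.24 and 9.26 in PRL-3 arrays, against 8.63, 8.71 and 8.53 in control arrays (log2), a difference of 0.69 ± 0.085 (adjusted p = 0.00302, limma) that passed in limma whichever array was left out. At an unadjusted p under 0.05 there were 5 of the 14, and the unequal-variance test called 0, RAB8B included. MAP3K5 was lower by -0.29 (log2; adjusted p = 0.0487, limma) and lost the call in 5 of the 6 fits without 1 array, all but that without control 3. Its groups did not overlap, at 9.44, 9.54 and 9.43 in PRL-3 arrays and 9.78, 9.82 and 9.68 in control arrays. The median over these 14 was 0.0038. Of 10 genes tied to PPM1G, MEPCE, the capping enzyme of 7SK RNA, fell by 0.57 on the log2 scale (adjusted p = 0.0368, limma) and 0 rose, with a median of 0.03. At an unadjusted p under 0.05 there were 4 of these 10, and 0 passed the unequal-variance test. MEPCE also lost the call in 5 of the 6 fits, all but that without control 3.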

How the data were processed

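Total RNA of 6 TF-1 samples was labelled from 100 ng with Nugen Applause and Encore kits, per the labels' protocols. The deposited table held 1 linear intensity per array for 28869 probe sets; how the authors summarised, background-corrected and normalized it is not given in the sources used here. Medians were alike, so it was taken as normalized, and differences are relative to the bulk of genes. Log2 values were taken with no offset. The platform annotation gave 19310 probe sets 1 symbol, 1752 several and 7807 none; 19279 matched RefSeq (GRCh38.p14), and 0 symbols changed. Probe sets with 1 symbol were tested, the brightest per gene, with limma 3.58.1 in R 4.3.3 (lmFit, eBayes, two-sided, Benjamini-Hochberg, threshold 0.05). Precision is limited by how few arrays there are. The fit was tested on simulated data. The members and lists were chosen with earlier results of these data known. Named genes were all members, PTP4A3, up to 3 passing genes per list (else the largest difference), and the 3 nearest patterns; outside this rule, PDP1, ILKAP, MAP3K7, BCKDHA, BCKDHB, BCKDK, SKA2 and KPNA4 were named after their values were seen. Other list members, among them PDP2, TAB1, LARP7 and PAK1, were not analysed here. Promoter sequences are from RefSeq, for 10 of 10 genes. Alternatives were normalization, variance model, array weights, a level filter, probe set handling, an unequal-variance test and left-out arrays. Figures used matplotlib 3.10.9.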

Additional observations from a re-analysis of the deposited data

How the results depend on the processing

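PPM1E and PPM1L stayed above 0 under every alternative run, at 0.43 to 0.52 and 0.29 to 0.49 (log2). PPM1E passed in 11 of 14 (adjusted p = 0.138 by the unequal-variance test) and PPM1L in 5 of 15, and was lost at adjusted p = 0.0506 with arrays shifted to 1 median, 0.0701 with every probe set tested and 0.296 by the unequal-variance test. Members called higher were thus 1 after the shift, 1 among genes above the median level (PPM1E is below it), 1 with every probe set tested, 1 without control 1 and PRL-3 5, and 0 by the unequal-variance test, and 0 to 1 with 1 array left out; 0 were lower throughout. Signs turned only in members that never passed: PPM1D read 0.00297 after the shift, 0.0106 without control 3 and 0.0234 without PRL-3 4 (leave-one-out range -0.0478 to 0.0234), PPM1F 0.0172 without control 1 (-0.24 to 0.0172), and PPM1G -0.0017 after quantile normalization, -0.112 with array weights, and -0.106 to 0.0801 with 1 array left out. Over all genes array weights gave 2122 higher and 2303 lower, the unequal-variance test 7 and 4, and leaving out 1 array 388 to 792 higher and 178 to 747 lower, fewest in both directions when control 2 was dropped. Some alternatives also used fewer arrays or tested more features, and what caused these changes in the counts was not tested. No paired analysis was possible because the array numbers of the groups are not shared.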
